A study of Mus musculus with 8 samples.

Results

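The expression of 9 genes of cytotoxic lymphocytes, a fixed list of symbols, was followed in single-nucleus RNA sequencing of mouse liver: Gzma, Gzmb, Gzmk, Prf1, Nkg7, Ctsw, Ifng, Klrd1 and Fasl. They are 9 of the 32285 genes counted in every library. Their unique molecular identifiers (UMIs, each standing for 1 captured RNA molecule) were summed over each library, over T nuclei and over natural killer (NK) nuclei. A T nucleus had at least 2 UMIs over Themis, Cd3e and Bcl11b. An NK nucleus had at least 2 UMIs over Klrb1c, Ncr1 and Klre1. Both kinds had at least 300 detected genes, and none of the 9 genes was used to choose them.

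Cytotoxic T cells and NK cells kill by secreting granules onto a target cell. Perforin, from Prf1, forms pores through which the granzymes, serine proteases stored in the same granules, enter and start cell death. Another route runs through Fas ligand, from Fasl, which binds the death receptor Fas on the target, and hepatocytes are known to carry Fas. Gzma encodes a tryptase-like granzyme, Gzmb a granzyme that cleaves after aspartate and activates caspases, and Gzmk a tryptase-like granzyme known from memory-type CD8 T cells. Nkg7 encodes a membrane protein of the granule, Ctsw cathepsin W, a cysteine protease of cytotoxic lymphocytes, Ifng the cytokine interferon gamma, and Klrd1 the receptor subunit CD94, which pairs with NKG2 proteins to read non-classical MHC class I.

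The mice were 8 male DIAMOND mice, labelled as a cross of 129A1/SvIm and C57BL/6J, which develop fatty liver disease and liver tumours on a Western diet of high fat with fructose and glucose in the water. All 8 received that diet. The WD tumour group (3 mice) stayed on it and had hepatocellular carcinoma, 48 weeks on diet by the series text. The 5 RD mice were returned to standard chow after 36 weeks: 2 had hepatocellular carcinoma (RD tumour) and 3 had none detected (RD no tumour). No group was kept on chow throughout, and tumour status was an outcome within the RD mice. The labels give an age of 48 weeks at the end, whereas in the series text the mice were 2 months old when diets began, so the 2 accounts of time differ. The livers were snap-frozen, and the labels do not say whether the piece taken held tumour.

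The 8 libraries held 80575 barcodes, of which 79446 were nuclei with at least 300 detected genes (6048 to 20000 a mouse). Library totals ran from 17948627 to 34363108 UMIs, and the median nucleus held 1120 to 2656 UMIs. The labelled tissue had its markers: all 5 hepatocyte markers were detected in every library, at a summed 9687 to 22781 counts per 1000000 UMIs (CPM). The library RD tumour 1 stood apart, with exactly 20000 barcodes and 82.4% of nuclei with 2 or more UMIs of neutrophil markers, against 0.428% to 34.0% in the other 7. Of 79794 distinct barcode sequences, 776 (0.973%) occurred in more than 1 library.

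The windows around the annotated start sites of the 3 granzyme genes are shown first. Each is 300 bases of GRCm38.p6, 250 before and 50 after the start, on the minus strand of the chromosome, from RefSeq. Capitals mark matches on either strand to 4 short motifs: the T-box motif GGTGTGA, the Runx motif TGTGGT, the AP-1 motif TGANTCA and the STAT motif TTCNNNGAA. Gzma lies at chr13:113100932-113101231, Gzmb at chr14:56262285-56262584 and Gzmk at chr13:113180916-113181215. The Gzmk window lies beside the starts of its short transcripts, not beside that of the long transcript Gzmk-202 described below.
Gzma: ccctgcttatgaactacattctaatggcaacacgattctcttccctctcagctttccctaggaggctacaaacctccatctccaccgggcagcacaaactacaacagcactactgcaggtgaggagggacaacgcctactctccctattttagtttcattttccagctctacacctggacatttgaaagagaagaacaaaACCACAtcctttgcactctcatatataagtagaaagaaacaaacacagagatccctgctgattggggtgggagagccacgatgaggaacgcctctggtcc
Gzmb: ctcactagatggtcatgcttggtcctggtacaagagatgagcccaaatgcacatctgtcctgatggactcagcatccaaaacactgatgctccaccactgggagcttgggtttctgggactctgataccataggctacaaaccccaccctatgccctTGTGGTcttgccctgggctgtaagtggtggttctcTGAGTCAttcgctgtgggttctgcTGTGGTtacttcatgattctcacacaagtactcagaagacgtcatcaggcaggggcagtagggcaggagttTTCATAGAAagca
Gzmk: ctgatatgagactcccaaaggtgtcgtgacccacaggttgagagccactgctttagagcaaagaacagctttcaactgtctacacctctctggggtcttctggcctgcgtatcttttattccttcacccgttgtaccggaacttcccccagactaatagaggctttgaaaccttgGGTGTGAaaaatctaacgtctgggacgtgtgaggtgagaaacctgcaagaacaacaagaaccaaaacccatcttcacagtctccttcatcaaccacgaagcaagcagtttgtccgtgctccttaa

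The Gzma window held 1 Runx match, read on the opposite strand, which begins at position -50 from the start. In the Gzmb window, Runx matches began at -93 and -34, an AP-1 match at -58 and a STAT match at position 38. The Gzmk window held a T-box match at -75 and no match to the other 3 motifs. Nkg7 had T-box, Runx and STAT matches, Prf1 a Runx match, Ifng a STAT match, and Fasl none. No capitals overlap between motifs in the windows shown. Among all 32851 windows of this length, 3.98% held the T-box motif, 16.8% the Runx motif, 7.81% the AP-1 motif and 8.30% the STAT motif. A match describes letters in the window and was not tested against the counts. Windows were found for 7 of the 9 genes, all but Ctsw and Klrd1.

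By GENCODE M21 on GRCm38, Gzma (ENSMUSG00000023132) spans chr13:113093825-113100981 and Gzmk (ENSMUSG00000042385) chr13:113171608-113225908 on the same minus strand. Gzmb (ENSMUSG00000015437) lies at chr14:56258838-56262260, Prf1 (ENSMUSG00000037202) at chr10:61297833-61304680 and Ifng (ENSMUSG00000055170) at chr10:118441046-118445892. Nkg7 (ENSMUSG00000004612) spans chr7:43437073-43438249, Ctsw (ENSMUSG00000024910) chr19:5465043-5468507, Klrd1 (ENSMUSG00000030165) chr6:129591782-129598775 and Fasl (ENSMUSG00000000817) chr1:161780689-161788495. In 3 cases the span overlaps another gene: Gzmk holds Esm1, Ctsw overlaps Fibp, and Ifng overlaps the unclassified Gm49751. Whether the counting used strand is not given in the sources used here, so reads in such an overlap cannot be assigned with certainty.

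Over all 8 libraries the 9 genes gave 4268 UMIs: 997 of Gzmk, 831 of Gzma, 686 of Nkg7, 482 of Gzmb, 435 of Klrd1, 356 of Ctsw, 246 of Fasl, 199 of Prf1 and 36 of Ifng. These counts are not per length and do not rank the genes. The summed level of the 9 genes was 32.8, 13.8 and 6.64 CPM in the 3 RD no tumour livers, 23.9 and 21.1 in the 2 RD tumour livers, and 19.6, 25.8 and 17.6 in the 3 WD tumour livers. The RD no tumour livers thus held both the highest and the lowest sum, and the groups overlapped. In such sums over a whole library, fewer cells of a type and less RNA per cell cannot be told apart.

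Among the granzymes, Gzmk stood at 4.18, 2.74 and 0.400 CPM in the RD no tumour livers, 6.66 and 6.61 in the RD tumour livers, and 3.90, 7.86 and 5.73 in the WD tumour livers. Both RD tumour livers were above all 3 RD no tumour livers, while the lowest WD tumour liver was below the highest RD no tumour liver. Gzma stood at 5.16, 2.87 and 0.707 CPM in RD no tumour, 10.2 and 3.39 in the RD tumour pair, and 2.56, 2.49 and 1.83 in WD tumour. Its high value came from RD tumour 1, the library dominated by neutrophil-marked nuclei. Gzmb stood at 5.53, 1.54 and 1.11 CPM in RD no tumour, 1.60 and 1.39 in the RD tumour pair, and 2.01, 2.53 and 2.48 in WD tumour. For Gzmb 1 liver, RD no tumour 1, lay above the other 7, which ranged from 1.11 to 2.53 CPM.

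Nkg7 ranged from 0.615 to 7.69 CPM over the 8 livers, and both ends were RD no tumour livers. Klrd1 ranged from 0.669 to 4.08 CPM, with RD tumour 1 the lowest and RD no tumour 1 the highest, and Prf1 from 0.116 to 1.92 CPM in the same 2 livers. Ctsw ranged more narrowly, from 1.13 to 2.56 CPM, and Fasl from 0.553 to 1.78. Ifng ranged from 0.0813 to 0.270 CPM, near the 0.0873 to 0.167 CPM that 3 UMIs are worth in these libraries. RD tumour 1 had the lowest value of Prf1, Ctsw, Klrd1 and Fasl and the highest of Gzma.

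**Figure D1:**
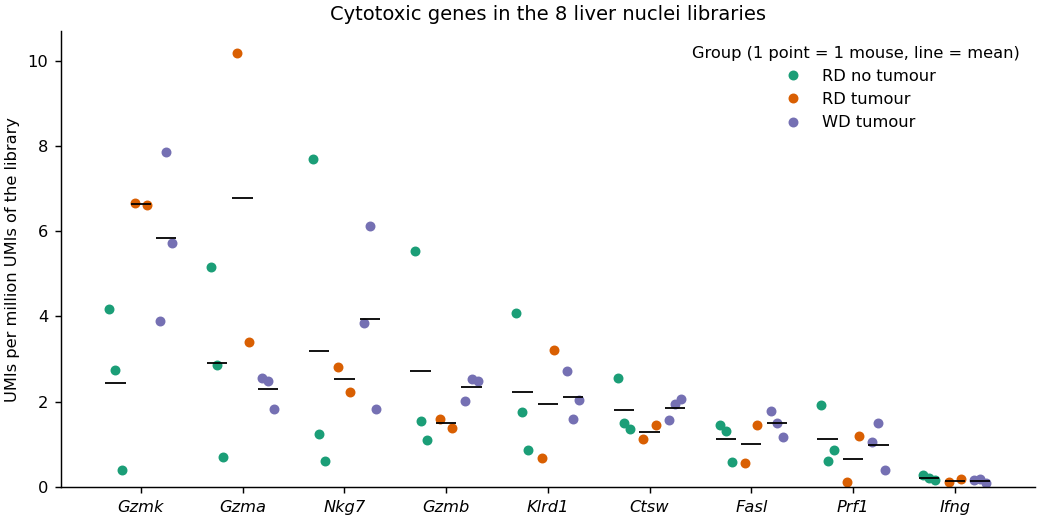
Level of each of the 9 genes in each of the 8 libraries, in CPM (vertical axis), with 1 point for each mouse, coloured by group, and a line at the group mean. The 2 RD tumour livers sit at 6.61 and 6.66 for Gzmk, above the 3 RD no tumour livers, and RD tumour 1 holds the highest Gzma value at 10.2.

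In the comparison of groups over whole libraries, edgeR's quasi-likelihood test with Benjamini-Hochberg adjustment called 0 of 19092 genes (0%) at 0.05 in each of the 3 contrasts, and 0 of the 8 members that were tested. Ifng did not pass the low-count filter. At an unadjusted p under 0.05 the test listed 526 genes (2.76%) for WD tumour over RD no tumour, 1285 (6.73%) for tumour over no tumour within the RD mice and 1448 (7.58%) for WD tumour over RD tumour, with none of the 8 members in any. The median log2 fold change of the members was -0.04, -0.30 and 0.57 in these contrasts, against -0.01, 0.00 and -0.01 over all genes tested. Gzmk had a log2 fold change of 1.42 ± 0.76 (SE) for tumour over no tumour within the RD mice and of 1.24 ± 0.70 for WD tumour over RD no tumour, with edgeR adjusted p of 0.613 and 1.00. Gzma differed by -1.58 ± 0.77 between WD tumour and RD tumour (edgeR adjusted p 0.587), and by -0.50 without RD tumour 1. Both RD tumour livers lay below all 3 WD tumour livers for Gzmb and Ctsw and above them for Gzma, and the contrasts share samples. Without RD tumour 2, so that RD tumour 1 stood alone for its group, 4569 genes were called against RD no tumour and 4427 against WD tumour, with 0 members among them in either.

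The genes of the wider killing pathway were counted in the same contrasts. No member passed the test in 9 lists, namely other granzymes, granule machinery, granzyme inhibitors, the death receptor pathway, killer cell receptors and adaptors, ligands on target cells, the interferon gamma response, effector transcription factors, and effector chemokines and cytokine receptors. Among the genes with most UMIs in their lists were Lamp1, a granule membrane protein, at a log2 fold change of 0.61 ± 0.42 for tumour over no tumour within the RD mice, and Cflar, which blocks caspase-8, at -0.11 ± 0.25. Gzmm, the 1 other granzyme with enough UMIs, stood at 0.73 ± 0.55 in that contrast (edgeR adjusted p 0.629).

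The gated nuclei were few. T nuclei numbered 403, 113 and 187 in the RD no tumour livers, 19 and 113 in the RD tumour livers, and 274, 272 and 126 in the WD tumour livers, 1507 in all or 1.90% of nuclei. Their share averaged 2.53% ± 1.20 (SD, n = 3) in RD no tumour, 0.592% ± 0.703 (n = 2) in RD tumour and 3.17% ± 1.53 (n = 3) in WD tumour. The lowest share, 0.095% in RD tumour 1, had an exact 95% binomial interval of 0.0572% to 0.148%, and that interval covers counting error only. The 104 NK nuclei were split as 35, 11 and 5 over the RD no tumour livers, 0 and 14 over the RD tumour pair, and 12, 8 and 19 over the WD tumour livers. Their share averaged 0.190% ± 0.146, 0.0675% ± 0.0954 and 0.171% ± 0.0521 in the same order. The exact 95% binomial interval of the 0 of 20000 nuclei in RD tumour 1 reached up to 0.0184%. Both gates were met by 9 nuclei.

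For neither share was a difference between conditions found beyond the spread between mice. The log2 T share of the 5 mice with tumours minus that of the 3 without was -0.99 (two-sided exact permutation test, p = 0.589), and that of the 3 Western diet mice minus the 5 reversed mice was 1.42 (exact permutation p = 0.375). For the NK share the same differences were -0.55 (exact permutation p = 0.696) and 0.87 (exact permutation p = 0.5). All 4 adjusted values were 0.696, and the smallest p these designs allow is 0.0179. The NK difference between mice with and without tumours turned to 0.12 without RD tumour 1 and to 0.07 without RD no tumour 1.

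The T gate was not uniform. Of the 1507 T nuclei, 1068 also had a UMI of Ptprc, the pan-leukocyte gene CD45, or of another T cell marker, and these held 782 UMIs of the 9 genes, 0.732 a nucleus. The other 439, of which 417 were gated by Themis alone, held 16, or 0.0364 a nucleus, which is below the 0.0678 a nucleus of endothelial nuclei. Over both kinds, 262 T nuclei had over 10000 UMIs, 72 of them among the 439. NK nuclei held 259 member UMIs, 2.49 a nucleus. Markers of other cell types were present in both gates: hepatocyte markers summed to 7324 to 21662 CPM in T nuclei and 5398 to 25384 CPM in NK nuclei. No doublet caller was run, and the part of doublets and of free RNA in these levels was not tested.

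The nuclei that held the 9 genes differed from gene to gene. T and NK nuclei are 1.90% and 0.131% of all nuclei. Over the 8 libraries both hold a larger share of all UMIs than of nuclei, so these percentages are a low baseline. Here a nucleus that met both gates was counted as NK. For Ifng, T nuclei held 47.2% of the UMIs and NK nuclei 5.56%, and for Fasl 43.5% and 6.91%. Klrd1 had 24.4% in T and 14.9% in NK nuclei, Gzmb 28.2% and 3.53%, Prf1 25.1% and 6.53%, and Ctsw 24.2% and 6.46%. Nuclei outside the gates that had a UMI of a gate marker or of Ptprc, 32.3% of all barcodes, held 27.6% (Prf1) to 43.2% (Gzma) of each gene. Gzma was the gene least found in T nuclei, with 3.61% there and 11.8% in NK nuclei. Per UMI it averaged 2.77 ± 1.73 CPM (SD) in T nuclei of 7 mice. In the 8 whole libraries it averaged 3.65 ± 2.93 CPM, with a median of 2.72 CPM. That mean includes RD tumour 1, the highest library at 10.2 CPM, which the 7 mice leave out. Gzmk differed from the rest in another way: 0.30% of its UMIs were in NK nuclei, 14.1% in T nuclei and 35.8% in endothelial nuclei, against 0% (Ifng) to 9.05% (Prf1) in endothelial nuclei for the other 8 genes.

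**Figure D2:**
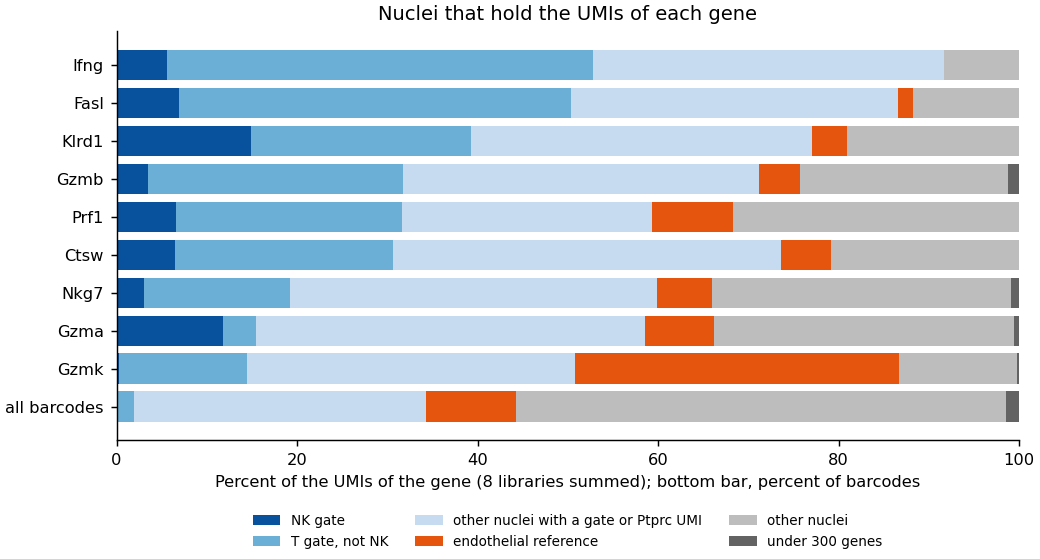
Percent of the UMIs of each gene (horizontal axis, 8 libraries summed) held by NK nuclei, T nuclei, other nuclei with a gate or Ptprc UMI, endothelial reference nuclei, other nuclei and barcodes under 300 genes, with the percent of all barcodes in the bottom bar. T nuclei hold 47.2% of Ifng and 3.61% of Gzma, and the endothelial reference holds 35.8% of Gzmk.

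In RD tumour 1 the gated nuclei held almost none of the genes. Of its 350 Gzma UMIs, 3 were in T nuclei and 0 in NK nuclei, 210 (60%) in other nuclei with a gate or Ptprc UMI and 114 (32.6%) in other nuclei. The classes held 59.2% and 35.9% of that library's barcodes, so that Gzma there was spread much as the barcodes were. Of its 229 Gzmk UMIs none was in a T nucleus. The share of nuclei with a UMI outside gated nuclei was highest in this library for Gzma, at 2.40% of endothelial nuclei, against a mean of 0.726% ± 0.745 over the 8 mice. Neutrophil-marked nuclei moved with this library, and their part in its Gzma level was not tested.

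Detection in T nuclei was set beside 8009 endothelial reference nuclei, which had at least 2 UMIs over Stab2, Ptprb, Flt1 and Kdr and none of the gate markers or Ptprc. Free RNA can give UMIs in nuclei that do not express a gene, so the reference serves as background. The rule also leaves out endothelial nuclei with free RNA of a gate marker or Ptprc. The background may therefore be low, and the ratios below high. Gzmb was detected in 7.83% ± 3.91 of T nuclei (SD, n = 7 mice with at least 20 T nuclei) against 0.288% of endothelial nuclei of the same 7 mice, Fasl in 7.81% ± 4.22 against 0.0413%, and Klrd1 in 7.45% ± 4.48 against 0.239%. Ctsw stood at 7.05% ± 5.35 against 0.292%, Nkg7 at 6.18% ± 1.79 against 0.613%, and Prf1 at 3.12% ± 0.487 against 0.235%. For these 6 genes and Gzmk the T share was above the endothelial share of the same mouse in 7 of 7 mice. Ifng was found in 1.15% ± 0.902 of T nuclei and 0% of endothelial nuclei, above it in 6 of 7 mice. Gzma was found in 1.41% ± 0.909 of T nuclei against 0.486% ± 0.337, above it in 6 of 7, and Gzmk in 7.21% ± 4.12 against 3.81% ± 2.08. The mean T share was thus 2.90 times the endothelial share for Gzma and 1.89 times for Gzmk, against 10.1 (Nkg7) to 189 times (Fasl) for the 6 genes above. Depth was not matched in these ratios.

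The median T nucleus held 1821 to 6216.5 UMIs by mouse and the median endothelial nucleus 1233.5 to 2517.5, so depth favours T nuclei in these shares. After each nucleus was thinned to 500 UMIs, which left out no nucleus, Gzmb was detected in 2.34% of T nuclei, Nkg7 in 1.87%, Gzmk in 1.52%, Ctsw in 1.39%, Fasl in 1.35% and Klrd1 in 1.33%. Prf1 was at 0.700%, Ifng at 0.486% and Gzma at 0.176%. In NK nuclei the thinned shares were 17.3% for Gzma, 14.6% for Klrd1, 6.81% for Gzmb, 5.28% for Nkg7 and 4.09% for Ctsw, while Gzmk and Ifng were at 0%. Thinned shares of endothelial nuclei are not given, so the part of depth in the ratios above was not tested. Per UMI, Gzmk averaged 13.8 CPM in T nuclei (7 mice) and 17.3 in endothelial nuclei (8 mice). Gzma had means of 2.77 and 3.67 CPM and medians of 3.13 and 2.10. Its highest endothelial value was 14.5, in RD tumour 1, which is not among the 7 mice of the T mean. The 2 means of Gzma thus cover unlike sets of mice and do not show which kind of nucleus was higher. Means of the other members were higher in T nuclei.

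**Figure D3:**
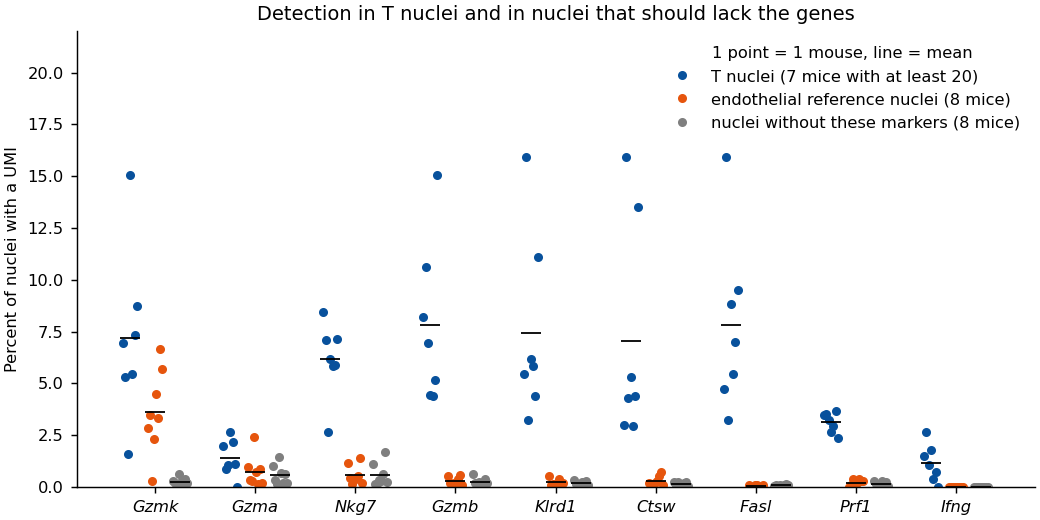
Percent of nuclei with at least 1 UMI (vertical axis) of each gene in T nuclei (7 mice), endothelial reference nuclei and nuclei without lymphoid or endothelial markers (8 mice each), with 1 point for each mouse and a line at the mean. The mean for Fasl is 7.81% of T nuclei and, over all 8 mice, 0.0492% of endothelial nuclei, while for Gzmk the endothelial mean is 3.62%.

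Several of the genes were found in the same nuclei. At least 1 of the 9 genes was detected in 79 of 104 NK nuclei (76.0%), 432 of 1507 T nuclei (28.7%), 435 of 8009 endothelial nuclei (5.43%) and 2285 of 69835 other nuclei (3.27%). At least 2 were detected in 42 NK nuclei (40.4%), 168 T nuclei (11.1%), 8 endothelial nuclei (0.0999%) and 147 others (0.210%). At least 3 were found in 24 NK nuclei, 53 T nuclei and 0 endothelial nuclei. By T cell chain, 128 of the 225 T nuclei with a CD8 chain UMI and none of Cd4 (56.9%) had a member, at a summed 184 CPM. Among the 57 with a Cd4 UMI and no CD8 chain, 19 (33.3%) had one, at 38.1 CPM, and 16 of their 30 member UMIs were Gzmk. Of those 16 UMIs, 7 came from RD tumour 2 and 7 from WD tumour 2. Most T nuclei, 1223, showed neither chain, and 23.2% of them had a member. By definition they include the 439 T nuclei without Ptprc or another T cell marker, which lower that share. They were not always shallower than CD8 chain nuclei. Their median was 6344 UMIs against 2125 in WD tumour 1, but 1472 against 4812.5 in RD tumour 1. The counts of nuclei with members are pooled over 8 mice and given as a description.

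Within T nuclei, levels were compared between groups over 7 mice. RD tumour 1 had 19 T nuclei and was left out by the minimum of 20, so RD tumour is the single mouse RD tumour 2 in these fits, assumed to vary as the other groups do. Gzmb stood at 23.6, 37.5 and 10.0 CPM in RD no tumour, 3.15 in RD tumour 2, and 6.74, 7.20 and 42.8 in WD tumour. The WD tumour livers covered the RD no tumour range, and RD tumour 2 lay below all 6. Prf1 stood at 7.51, 18.8 and 4.63 CPM in RD no tumour, 1.58 in RD tumour 2, and 3.37, 4.40 and 4.59 in WD tumour. For Prf1 all 4 livers with tumours lay below the 3 without, the nearest pair being 4.59 and 4.63. Ifng stood at 3.22, 12.5 and 1.54 CPM in RD no tumour, 1.05 in RD tumour 2, and 0.421, 0.800 and 0 in WD tumour, on 6, 4, 2, 2, 1, 2 and 0 UMIs. The Ifng livers with tumours were all below the 3 without, on counts this small. In RD tumour 2, 36 of the 113 T nuclei had over 10000 UMIs and held 90.0% of the UMIs of its T nuclei. In the other 6 mice such nuclei held 21.9% to 65.9%. The part of these deep nuclei in the levels of RD tumour 2 was not tested.

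The edgeR test called 0 of 14523 genes (0%) and 0 of the 9 members in each contrast of T nuclei. At an unadjusted p under 0.05 it listed 494 genes (3.40%) for WD tumour against RD no tumour, among them Ifng at a log2 fold change of -2.93 ± 1.13 (edgeR adjusted p 1). For RD tumour 2 over the RD no tumour mice it listed 687 genes (4.73%), among them Prf1 at -2.58 ± 1.01 (edgeR adjusted p 0.975). For WD tumour against RD tumour 2 it listed 662 genes (4.56%) and no member. The members' median log2 fold change was -0.89, -2.17 and 1.29 in these contrasts, against -0.02, -0.07 and 0.07 over all genes, and 8, 8 and 2 of the 9 were negative. Gzmb was at -2.91 ± 1.34 in RD tumour 2 over the RD no tumour mice. This moved to -0.53 when nuclei over 10000 UMIs were left out, and Prf1 to -1.37, alternatives chosen after seeing the data. None of the 9 lists of pathway genes had a member past the test in T nuclei.

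Contents of the T gate differed between mice. The 8 other T cell markers summed to 294 to 1526 CPM in T nuclei of RD no tumour, 211 to 224 in RD tumour and 168 to 694 in WD tumour. All 8 were detected in each RD no tumour and WD tumour liver, and at least 5 in the RD tumour livers. The 4 endothelial markers, all detected in every liver, summed to 222 to 533, 361 to 624 and 482 to 615 CPM in the same order. Neutrophil markers summed to 21.9 to 507, 47.3 to 1904 and 16.8 to 92.0 CPM. Their part in the group values was not tested. In T nuclei with a further blood or T cell marker and up to 10000 UMIs, Gzmb stood at 59.7, 58.9 and 53.3 CPM in RD no tumour, 29.9 in RD tumour 2, and 45.1, 30.0 and 98.9 in WD tumour.

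In NK nuclei, Gzma stood at 252, 759 and 196 CPM in RD no tumour, 16.0 in RD tumour 2, and 563, 0 and 180 in WD tumour. Klrd1 stood at 187, 217 and 131 CPM in RD no tumour, 26.6 in RD tumour 2, and 169, 120 and 152 in WD tumour. RD tumour 2 had the lowest Klrd1 of the 7 mice, and Gzma was absent from the 8 NK nuclei of WD tumour 2. The NK nuclei of RD tumour 2 were also the deepest, with a median of 9215.5 UMIs against 1108 to 2077 in the other 6 mice, and 7 of its 14 had over 10000 UMIs. Their Ptprc level was 357 CPM against 751 to 1353 CPM elsewhere, and the 3 NK gate markers summed to 218 CPM against 359 to 1012 CPM. The 8 other T cell markers, 5 of them detected, summed to 138 CPM there against 228 to 904 CPM, and the 4 endothelial markers to 772 CPM against 72.3 to 775 CPM. The part of depth and of other cells in the levels of RD tumour 2 was not tested, and with nuclei of up to 10000 UMIs neither gene passed the low-count filter. With at least 5 NK nuclei a mouse, edgeR called 0 of 2720 genes (0%) in each contrast, and 2 members, Gzma and Klrd1, had enough UMIs to be tested. Both had an unadjusted p under 0.05 in the 2 contrasts with RD tumour 2, among 174 genes (6.40%) and 176 genes (6.47%) that did, with edgeR adjusted p of at least 0.588. Neither did so for WD tumour over RD no tumour, where 101 genes (3.71%) did. RD tumour there is again 1 mouse, with 14 NK nuclei.

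Members did pass a test between NK and T nuclei of the same liver. Gzma and Klrd1 were higher in NK nuclei, and Ctsw was higher to a smaller extent, while Gzmb, Gzmk, Prf1, Nkg7, Fasl and Ifng did not pass the test. The comparison used 6 mice with at least 5 nuclei of each kind, 91 NK nuclei (7 to 33 a mouse) and 1293 T nuclei, with the mouse as a block and nuclei that met both gates left out. With the low-count filter, edgeR called 20 of 4860 genes (0.412%), 18 higher in NK nuclei (0.37%) and 2 lower (0.0412%), of which 4 (Ncr1, Klre1, Themis and Bcl11b) are gate genes. Klrd1, the only member that passed the filter, was among them at a log2 fold change of 3.46 ± 0.44 (edgeR adjusted p 0.000218). That call was lost without the mouse block (adjusted p 0.0731), and with a gate of 3 UMIs or without nuclei with markers of another class Klrd1 did not pass the filter and was not tested. Without the filter, 275 of 22180 genes (1.24%) were called, 140 higher (0.631%) and 135 lower (0.609%), and the members could all be tested: 3 of 9 were higher and 0 lower. At an unadjusted p under 0.05 it was 7 of 9 members, against 10.1% of all genes. The median log2 fold change over all genes was -0.49 in that fit. The 20 calls became 13 without RD no tumour 1, 46 without RD no tumour 2, 58 without RD tumour 2 and 10 without WD tumour 3. The 275 became 60 without RD no tumour 1, 490 without RD tumour 2, 173 without WD tumour 1 and 166 without WD tumour 3.

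Gzma stood at 322, 816, 20.8, 969, 0 and 233 CPM in NK nuclei of RD no tumour 1, RD no tumour 2, RD tumour 2, WD tumour 1, WD tumour 2 and WD tumour 3, against 4.92, 3.15, 2.15, 3.39, 1.60 and 0 CPM in T nuclei. It was higher in NK nuclei in 5 of 6 mice, the exception being WD tumour 2 with 7 NK nuclei. Its log2 fold change was 5.88 ± 0.47 (edgeR adjusted p 1.54e-32). In this unfiltered fit the SE and p rest in effect on a spread shared over genes. They do not measure how widely Gzma varied between the 6 mice, at 393 ± 409 CPM (SD) in NK nuclei. The same limit holds for every SE and p of the unfiltered fit. Klrd1 stood at 246, 194, 34.6, 291, 124 and 144 CPM in NK nuclei and 12.6, 59.8, 5.37, 7.63, 5.20 and 25.1 CPM in T nuclei, higher in 6 of 6 mice, at 3.12 ± 0.41 (edgeR adjusted p 4.21e-11). Ctsw was also higher in 6 of 6 mice, with means of 66.2 ± 52.9 and 17.3 ± 20.7 CPM (SD), at 1.85 ± 0.50 (edgeR adjusted p 0.0248). The Ctsw call was lost without RD no tumour 1 (adjusted p 0.368), RD tumour 2 (0.0655), WD tumour 1 (0.0664) or WD tumour 3 (0.169), and without the mouse block (0.344).

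The other granule genes stood between. Nkg7 had a log2 fold change of 1.53 ± 0.51 and Prf1 of 1.77 ± 0.70, with edgeR adjusted p of 0.112 and 0.256. Fas ligand, Fasl, was at 1.30 ± 0.52 and Gzmb at 0.66 ± 0.55, with edgeR adjusted p of 0.258 and 0.822. Gzmk alone had a negative value, -2.06 ± 0.88 (edgeR adjusted p 0.327), on 2 UMIs in NK nuclei and 138 in T nuclei, and was lower in 5 of 6 mice. Ifng was at 0.82 ± 1.36 on few UMIs. Gzma and Klrd1 kept their calls in every unfiltered alternative run, at log2 fold changes of 5.40 to 6.76 and 1.98 to 3.51. T levels depended on the gate. In T nuclei with a further marker and up to 10000 UMIs, Nkg7, Gzmb and Fasl averaged 40.8, 53.7 and 45.2 CPM (7 mice). In all NK nuclei of these mice, with neither limit applied, they averaged 39.5, 50.6 and 34.4 CPM. In those T nuclei Ctsw, Prf1, Klrd1 and Gzma averaged 38.3, 17.8, 45.3 and 7.69 CPM. Their NK means were higher, at 55.3, 26.5, 143 and 281 CPM. This T set was chosen after seeing the data, the 2 sets are cut unlike in depth, and the difference was not tested. NK nuclei over 10000 UMIs held 169124 of the 187913 NK UMIs in RD tumour 2 and 80906 of 138935 in RD no tumour 1.

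**Figure D4:**
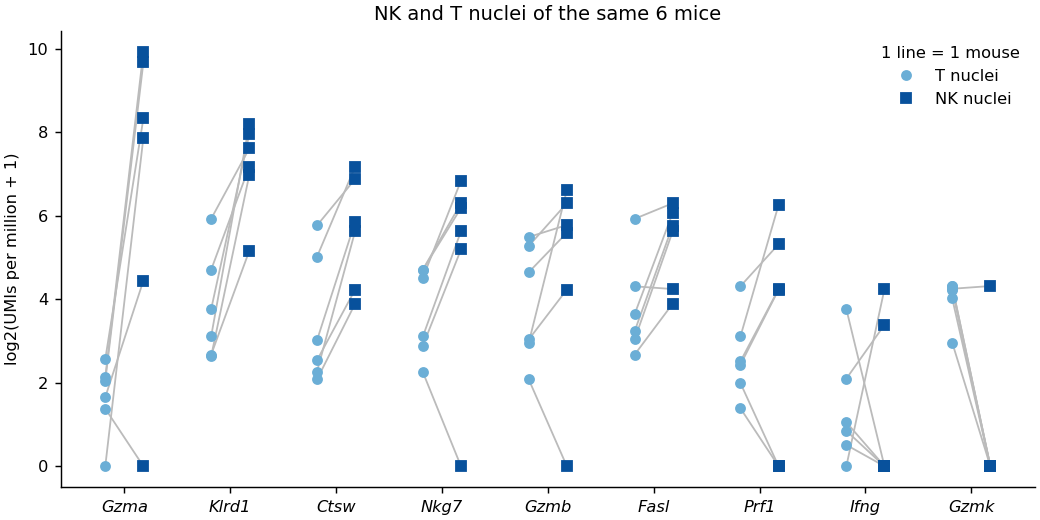
Level of each gene in T nuclei and NK nuclei of the same 6 mice, as log2(CPM + 1) on the vertical axis, with 1 line for each mouse. The lines of Klrd1 and Ctsw rise in 6 of 6 mice and those of Gzma in 5 of 6, while those of Gzmk go down in 5 of 6.

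Genes of the wider pathway were counted in the same fit without the filter. Of 13 killer cell receptors and adaptors 5 were higher in NK nuclei and none lower, led by Klrb1a, an NK receptor of the NKR-P1 family (6.43 ± 0.64), and Klrk1, which encodes the activating receptor NKG2D (3.63 ± 0.36). Of 10 effector chemokines and cytokine receptors 2 were higher: Il2rb, a receptor chain for interleukin signals (2.50 ± 0.39), and Il18rap, an accessory chain of another interleukin receptor (2.24 ± 0.46). Tbx21, which encodes the transcription factor T-bet, was higher at 1.63 ± 0.47 (edgeR adjusted p 0.0445), 1 of 7 in its list. Serpinb9, which encodes an inhibitor of granzyme B, was higher at 2.40 ± 0.61 (edgeR adjusted p 0.0112), 1 of 3 granzyme inhibitors tested. NK nuclei of all mice held few UMIs of these genes: 26 of Tbx21, 17 of Serpinb9, 32 of Klrb1a and 33 of Il18rap. How these calls fared with 1 mouse left out is not given. None of 12 granule machinery genes, 10 death receptor genes, 11 ligands, 12 interferon gamma response genes or 2 other granzymes was called. The 2 other granzymes, Gzmm and Gzmc, had 0 UMIs in NK nuclei, so they could not have been called higher there. The medians of the killer receptor and cytokine receptor lists were 1.66 and 0.57, against -0.49 over all genes.

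Gzmk was also found outside lymphocyte nuclei. It stood at 17.3 ± 8.89 CPM in endothelial reference nuclei (SD, n = 8 mice), 13.8 ± 6.59 in T nuclei (n = 7) and 1.44 ± 1.56 in nuclei with neither set of markers (n = 8). By mouse the endothelial level was 16.9, 13.9 and 1.15 CPM in RD no tumour, 14.5 and 22.3 in the RD tumour pair, and 13.6, 27.2 and 29.0 in WD tumour, with RD no tumour 3 far below the other 7 on 5 UMIs. A test of endothelial against unmarked nuclei within the 8 mice, chosen after seeing the data, gave a log2 fold change of 3.72 ± 0.36 for Gzmk (edgeR adjusted p 7.21e-05) and 0.11 ± 0.35 for Gzma (0.831). In that fit 5174 of 14029 genes (36.9%) were called, 2227 higher (15.9%) and 2947 lower (21%), and the other 7 members did not pass the low-count filter. Gzmk stayed called in the 7 fits without 1 mouse that tested it, at 3.53 to 3.73. Without RD tumour 1 it did not pass the low-count filter.

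The annotated Gzmk locus holds Esm1, which encodes the endothelial protein endocan, on the opposite strand. The long transcript Gzmk-202 has exon 1 at chr13:113225764-113225908 and exon 2 at chr13:113223327-113223488, while its exon 3 lies at chr13:113180435-113180582. Esm1, at chr13:113209659-113218098, falls inside the intron between exons 2 and 3 of that transcript, whereas the short transcript Gzmk-201 ends at base 113180897 and does not reach it. Of the 268 endothelial nuclei with a Gzmk UMI, 120 (44.8%) had an Esm1 UMI, against 440 of 7741 (5.68%) without Gzmk. For T nuclei it was 28 of 100 against 3.48%, and for other nuclei 78 of 443 (17.6%) against 1.51%. Of the 28 T nuclei, 7 came from RD tumour 2 and 14 from WD tumour 2, where T nuclei with Gzmk had medians of 53215 and 10011.5 UMIs against 2165 and 5174.5 without it, and 0 of 11 had Esm1 in WD tumour 3. In endothelial nuclei the medians with and without Gzmk were closer, at 1548.5 to 2579 and 1215 to 2513 UMIs by mouse. For Gzma, which does not overlap Esm1, 2 of 56 endothelial nuclei with a UMI had Esm1 (3.57%, against 7.02% without), 3 of 25 T nuclei (12%, against 4.99%) and 18 of 599 other nuclei (3.01%, against 1.60%). Ctsw stood at 4 of 20 endothelial nuclei (20%, against 6.96%). Over the 8 members other than Gzmk the share with Esm1 ran from 0% to 12% in T nuclei and 0% to 3.78% in other nuclei, and 4 of the 7 with a UMI in endothelial nuclei had none there.

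The pairing of Gzmk with Esm1 was not seen in every liver. By mouse, 16 of 27, 16 of 33 and 1 of 4 endothelial nuclei with Gzmk had Esm1 in RD no tumour, 0 of 22 and 19 of 51 in RD tumour, and 6 of 25, 28 of 47 and 34 of 59 in WD tumour. Esm1 itself was higher in endothelial than in unmarked nuclei at 2.90 ± 0.38 (edgeR adjusted p 0.00034). Whether Gzmk UMIs in these nuclei are reads from Esm1 was not tested, because the positions of the reads are not used here. The whole-library values of Gzmk above include these nuclei.

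**Figure D5:**
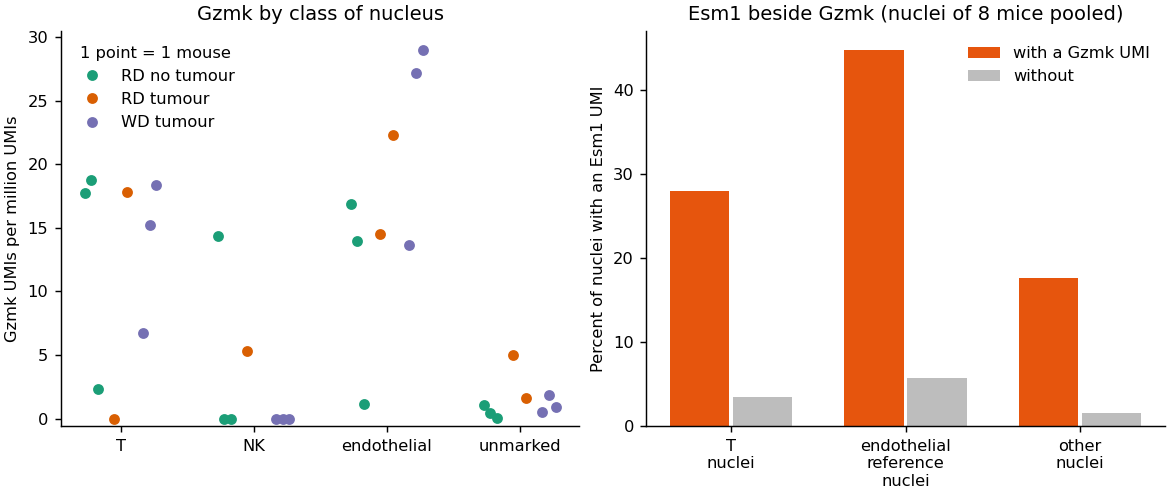
Left, Gzmk CPM (vertical axis) in T, NK, endothelial reference and unmarked nuclei, with 1 point for each mouse coloured by group. Right, percent of nuclei with an Esm1 UMI (vertical axis, nuclei of 8 mice pooled) among nuclei with and without a Gzmk UMI, at 44.8% and 5.68% in endothelial reference nuclei.

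The genes whose library levels followed the sum of the 9 members most closely were Zglp1, Rnf19b, Sp100, Palm, Sfxn3, Lsp1, Zswim6, Tbkbp1, Zfp990 and Slc31a2. Their Pearson r of log2(CPM + 1) with the sum ran from 0.980 (Zglp1) to 0.954 (Slc31a2) over 8 libraries, the highest of 16482 genes. Among the members, Nkg7 had an r of 0.893, Gzmk 0.856, Gzma 0.727, Gzmb 0.701, Klrd1 0.515, Fasl 0.490, Ctsw 0.484, Prf1 0.298 and Ifng 0.267. The members are part of the sum, and all values share the same 8 libraries and their depth, so these are descriptions.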

How the data were processed

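Nuclei of 8 livers were measured on the 10x Chromium system with 3' v3.1 libraries, per the labels' protocols. The authors deposited raw UMI counts, 1 sparse matrix of genes by barcodes a mouse, made with Cell Ranger 7.0.0 and build mm10, per the file headers and the submitters' processing notes. The counting of introns, the use of strand and the rule that called barcodes are not given in the sources used here.

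The members and all gene lists were chosen with earlier results of these data known. The text names all 9 members. Of each pathway list it names at most 4 genes, either the 2 largest changes past the threshold in each direction or, where none passed, the 2 with the most UMIs, and the 10 genes of at least 200 UMIs most like the members' sum. Counts were summed per mouse, and CPM are per 1000000 UMIs of the same sum. The mouse was the replicate, and nothing was tested over nuclei.

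Sums were tested with edgeR 4.0.16 (quasi-likelihood, TMM scaling, filterByExpr, Benjamini-Hochberg at 0.05 over all genes tested) in R 4.3.3, with DESeq2 1.42.0 as an alternative. All 3 groups shared 1 model. Mice with fewer than 20 gated nuclei were left out. Only 1 mouse had 20 NK nuclei, so NK fits could not be made at 20, and a minimum of 5 is reported. Other tables were made with Python 3.11.15, NumPy 2.4.6, pandas 2.3.3 and SciPy 1.17.1. Shares were tested by exact permutation, with 3 counts standing in for 0. Single-mouse shares have exact (Clopper-Pearson) 95% intervals. The scripts were tested on simulated data.

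No doublet caller was run. Leaving out nuclei over 10000 UMIs, or nuclei with markers of another class, were alternatives, with others on the gates, the filter, the scaling and each mouse left out. Reads, tumour samples and chow-fed mice were not analysed here.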

Additional observations from a re-analysis of the deposited data

How the results depend on the processing

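No group contrast called a member under any alternative run over whole libraries, T nuclei or NK nuclei. Counts of all genes called did move. Over whole libraries DESeq2 called 67 genes for tumour over no tumour within the RD mice, 46 for WD tumour over RD no tumour and 110 for WD tumour over RD tumour, where edgeR called 0. Leaving out 1 mouse gave 0 to 4569, 0 and 0 to 4427 genes, the high values without RD tumour 2. In T nuclei DESeq2 called 5, 8 and 13 genes in the same order, no low-count filter 1 and 9 (first and last contrast), a gate of 3 UMIs 1 (last), and leaving out 1 mouse 0 to 1 (WD tumour over RD no tumour). In NK nuclei no filter gave 6, 27 and 5 genes, leaving out nuclei with markers of another class 92, 3 and 74, DESeq2 2 (last), only the 2 groups compared 1 (last), and leaving out 1 mouse 0 to 1 (WD tumour over RD no tumour).

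Between NK and T nuclei the 20 genes called became 43 with DESeq2, 12 with a further T marker, 70 with double-gated nuclei counted as NK, 9 with a gate of 3 UMIs, 275 without the filter, 41 with nuclei of up to 10000 UMIs, 3 without nuclei with markers of another class, and 10 to 58 with 1 mouse left out. The 1 member called, Klrd1, became 0 with a gate of 3 UMIs and without nuclei with markers of another class, where it did not pass the low-count filter, 3 without the filter, and 1 to 2 with 1 mouse left out.

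Mouse numbers in the labels only number the mice of a group, and same-numbered mice did not deviate together (correlations from -0.51 to 0.44). With the number as a replicate block, 0 genes and 0 members were called in every group contrast, and Gzmk for WD tumour against RD tumour in whole libraries turned from -0.18 to 0.33. Between NK and T nuclei, dropping the mouse block left 6 genes and 0 members.

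Directions also turned for Gzmb in T nuclei of WD tumour over RD no tumour, from -0.47 to 0.25 without nuclei with markers of another class, and for Fasl between NK and T nuclei, from 1.30 to -0.85 with a gate of 3 UMIs. With 1 mouse left out, Gzma in whole libraries of WD tumour over RD no tumour ran from -0.81 to 0.30 (turned without RD no tumour 1). Ifng between NK and T nuclei ran from -0.23 to 1.46 (turned without WD tumour 3), and the NK share with against without tumours from -1.34 to 0.12. The cause was not tested in any of these. The limits are few NK nuclei, 2 or 3 mice a group and gates on 3 genes. The further marker, the 10000 UMI limit, combinations with the 5-nucleus minimum and the endothelial comparison were chosen after seeing the data.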
